A study of Saccharomyces cerevisiae with 10 samples.

Results

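The 39 genes described here encode ribosome biogenesis factors, the nucleolar proteins of budding yeast that process ribosomal RNA and assemble ribosomal subunits. They were picked by identifier out of the 6600 genes of the deposited table, and all 39 are present in it. By role they comprise 3 proteins of the box C/D small nucleolar ribonucleoprotein (snoRNP), 4 of the box H/ACA snoRNP, the nucleolin-like *NSR1*, 7 RNA helicases, 9 factors of the small-subunit precursors and 15 of the large-subunit precursors. They were picked as named genes, with no threshold on a measured value, but with earlier results of these data known.

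Polyadenylated RNA was sequenced from 5 strains of the S288C background that were fermenting supplemented white grape juice in 5 mL reactions, with 2 biological replicates per strain. The strains were a med15 deletion, 3 strains that carry the WY7, WY15 or WY23 allele of *MED15*, and the LAB strain, whose genotype is given as WT and which the design lists as an integrant of the LAB allele. The product of *MED15* sits in the tail of Mediator, through which DNA-bound activators act on RNA polymerase II. Cells were collected at the stage that the sample titles call 35% fermentation, listed as a weight loss of 35%. That was after 48 h in the med15 deletion and about 37 h in the 4 *MED15* strains. Genotype and time of harvest therefore cannot be told apart in any comparison with the deletion, and neither can *URA3*, a gene of pyrimidine synthesis and a common selection marker, which had 3213 and 3214 normalized counts in the deletion libraries and is listed at 0 in the 8 *MED15* libraries. In whole cultures, fewer cells and less RNA per cell cannot be told apart.

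Recovered read totals lay between 22.7 and 29.3 M per library, and *MED15* stood at 12.1 and 11.9 normalized counts in the deletion libraries against 8238 to 10958 in the *MED15* libraries. The 39 genes took between 0.494% (WY15 replicate 2) and 0.739% (WY15 replicate 1) of the reads of a library, so these extremes were the 2 libraries of one strain. No gene of the 39 had fewer than 1024 reads in any library, and all passed the filter on low values. Values are normalized counts, that is read counts divided by 1 size factor per library, and differences are log2 changes with their standard errors (SE).

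Ribosome synthesis starts in the nucleolus, where RNA polymerase I transcribes a long precursor RNA. Box C/D snoRNPs methylate that precursor and box H/ACA snoRNPs turn uridines into pseudouridines, while the small-subunit processome, helicases, GTPases and methyltransferases cut, fold and release the subunits. In budding yeast the genes of these factors form the ribosome biogenesis regulon, which is transcribed strongly in growing cells and repressed on starvation through TORC1, the kinase Sch9 and the regulators Sfp1, Dot6, Tod6 and Stb3. Many of their promoters carry the PAC element, bound by Dot6 and Tod6, and the RRPE element, bound by Stb3.

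The promoters of the 39 genes were read from the R64 genome (sacCer3), the build named for the deposited data. The windows of 250 bases shown here run from base 300 to base 51 before the start codon, 5′ to 3′ on the strand of the gene. *NOP1* and *NSR1* are shown because they had the largest changes in the deletion, *NOP56* and *NOP58* because their proteins share a particle with the product of *NOP1*, and *UTP22* because it lacks both motifs. Capitals mark GATGAG, the core of PAC, AAAAATTT, the core of RRPE, and their reverse complements CTCATC and AAATTTTT.
NOP1 (chrIV:427064-427313, + strand): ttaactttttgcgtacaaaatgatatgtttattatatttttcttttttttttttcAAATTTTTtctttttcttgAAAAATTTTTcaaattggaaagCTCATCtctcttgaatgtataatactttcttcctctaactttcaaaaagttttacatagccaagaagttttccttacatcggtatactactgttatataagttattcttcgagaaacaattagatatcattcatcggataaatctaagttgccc
NOP56 (chrXII:545797-546046, + strand): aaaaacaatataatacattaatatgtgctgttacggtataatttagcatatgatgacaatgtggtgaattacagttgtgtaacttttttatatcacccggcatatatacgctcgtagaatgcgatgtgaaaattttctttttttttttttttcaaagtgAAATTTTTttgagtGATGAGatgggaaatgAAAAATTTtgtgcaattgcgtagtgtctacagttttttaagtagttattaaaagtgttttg
NOP58 (chrXV:898411-898660, - strand): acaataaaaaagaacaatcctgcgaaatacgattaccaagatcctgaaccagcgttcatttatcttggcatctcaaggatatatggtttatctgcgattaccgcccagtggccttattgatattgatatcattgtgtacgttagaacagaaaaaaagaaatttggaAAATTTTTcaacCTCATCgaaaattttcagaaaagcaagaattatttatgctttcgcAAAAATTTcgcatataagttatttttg
NSR1 (chrVII:807707-807956, - strand): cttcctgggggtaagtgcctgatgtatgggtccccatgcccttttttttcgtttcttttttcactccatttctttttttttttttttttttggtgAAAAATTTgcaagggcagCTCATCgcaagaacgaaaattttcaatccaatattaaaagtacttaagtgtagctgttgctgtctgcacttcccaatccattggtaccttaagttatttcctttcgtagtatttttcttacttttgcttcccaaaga
UTP22 (chrVII:662058-662307, + strand): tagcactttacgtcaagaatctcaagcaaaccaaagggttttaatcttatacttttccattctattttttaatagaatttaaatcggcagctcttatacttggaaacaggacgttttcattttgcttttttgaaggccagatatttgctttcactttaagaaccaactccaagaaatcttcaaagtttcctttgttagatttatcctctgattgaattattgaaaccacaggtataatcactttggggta

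Among the 300 bases before the start codon, GATGAG occurred on either strand in 36 of the 39 genes (92.3%), against 18.6% of 5897 protein-coding genes. AAAAATTT occurred in 34 (87.2%), against 15.4%, and both occurred in 32 (82.1%), against 5.7%. A copy of AAAAATTT and one of its reverse complement can overlap, as in the *NOP1* promoter. The end of GATGAG nearest the gene lay a median of 113 bases before the start codon (range 41 to 199), and that of AAAAATTT a median of 128.5 bases (27 to 217). In 28 of the 32 genes with both, GATGAG was the nearer to the start codon. *NOP1* had both motifs at the far end of these ranges, at 199 and 217 bases, and *NSR1* came next for GATGAG, at 182 bases, while *ECM1* had them close to the gene, at 41 and 29 bases. *UTP4*, *UTP22* and *SPB1* had no GATGAG, and *DBP10*, *MAK5*, *RRP9*, *NOC3* and *UTP22* had no AAAAATTT. These matches describe letters in a window and were not tested as binding sites.

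Levels per kilobase of coding length, as means over the 10 libraries, differed widely among the 39. *NOP10*, which encodes the smallest core protein of the box H/ACA particle, had the highest level with 22469.8 normalized counts per kilobase, followed by *NSR1* with 16434. *NHP2*, which encodes another box H/ACA protein, followed with 6035, and the median of the 39 was 2068. *UTP10*, the gene of a large scaffold protein of the small-subunit processome, was lowest with 495. The coding sequence of *NOP10* is only 177 bp long, and per-kilobase values of so short a gene depend on the fragment length.

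In the med15 deletion 1 of the 39 genes was higher and 1 lower than in LAB at an adjusted p under 0.05 (limma with Benjamini-Hochberg adjustment), while 36.6% of the 6065 genes tested were called, 18.9% higher and 17.7% lower. The gene that rose is *NOP1*, which encodes fibrillarin, the methyltransferase of the box C/D snoRNP, and the gene that fell is *ECM1*, which encodes a factor of large-subunit maturation and export. The median log2 change of the 39 was -0.13, beside 0.00 over all genes tested, with 10 positive and 29 negative values. That median rested on the LAB libraries: it was -0.28 without LAB replicate 1 (7 positive, 32 negative) and -0.0049 without LAB replicate 2 (19 positive, 20 negative). Their median SE in this comparison was 0.19, against 0.13 over all genes tested, and it draws on the replicates of all 5 strains. The median absolute log2 difference between replicates was above that of all genes in WY15 (0.60 against 0.20) and LAB (0.31 against 0.18). It was near that of all genes in the deletion (0.14 against 0.13) and WY23 (0.077 against 0.078), and below it in WY7 (0.063 against 0.12). The 95% interval of the change stayed within 2-fold in both directions for 34 genes and reached beyond it for 5. 37 genes did not pass, which does not show that they were equal.

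**Figure D1:**
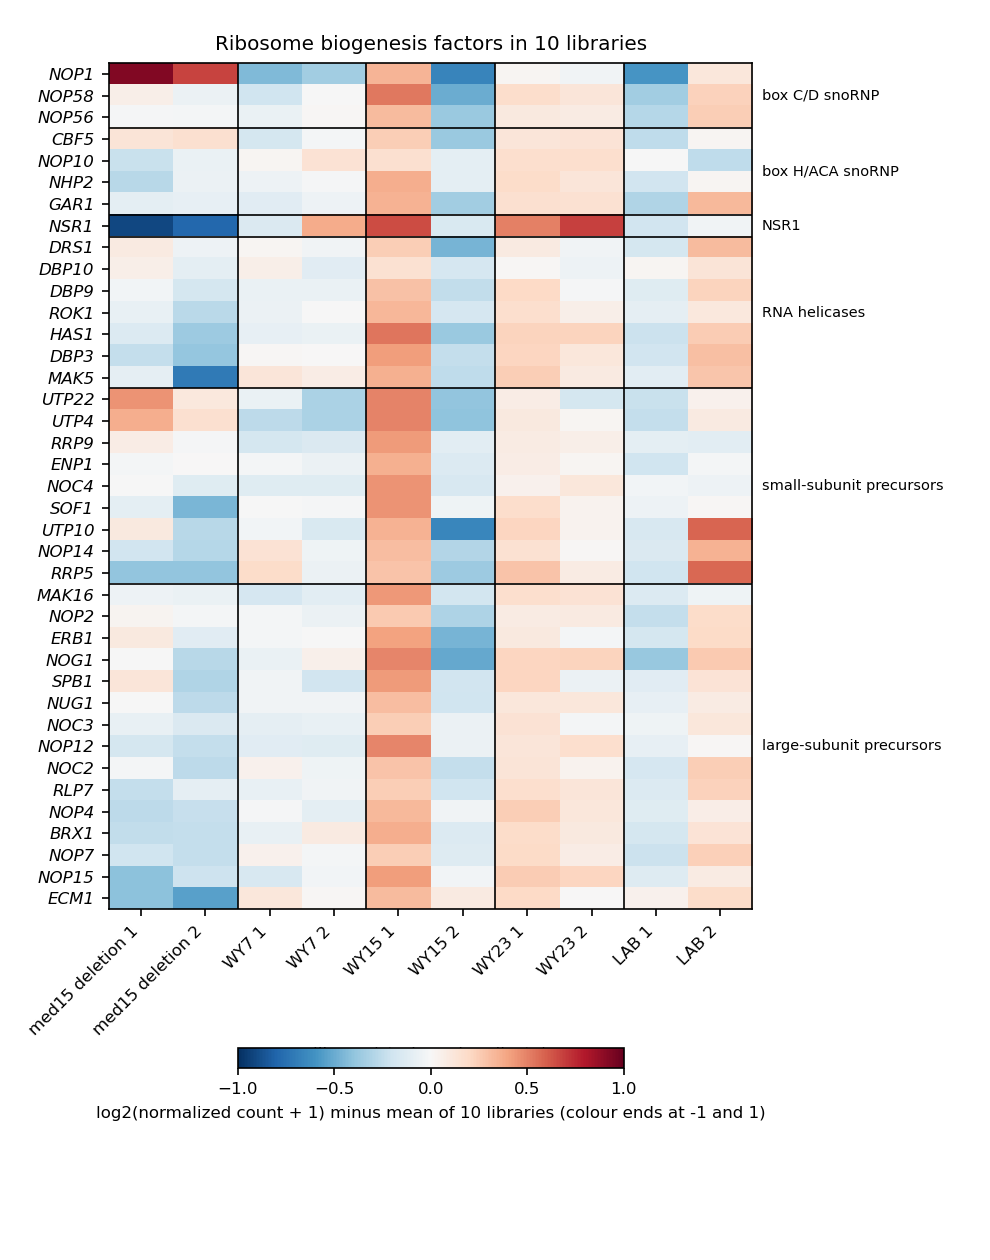
Each cell is log2(normalized count + 1) of a gene minus its mean over the 10 libraries, with genes in rows grouped by role and libraries in columns, the med15 deletion at the left and LAB at the right. *NOP1* is highest in both deletion libraries and *NSR1* lowest in them, and WY15 replicate 1 is the highest library for 32 of the 39 genes, against 14.1% of all genes tested.

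*NOP1* (YDL014W, chromosome IV, 427364 to 428347, plus strand) had 7610.5 and 6399 normalized counts in the deletion libraries. It had 2949.9 and 3149 for WY7, 5089 and 2545 for WY15, 4065 and 3918 for WY23, and 2670.1 and 4353 for LAB. Both deletion libraries thus lay above all 8 *MED15* libraries, even above WY15 replicate 1. The mean was 7005 ± 856 in the deletion and 3511 ± 1189.8 in LAB (SD, n = 2 each), a log2 change of 1.03 with an SE of 0.32 (2.05-fold higher, limma adjusted p = 0.036). That call was lost when LAB replicate 1 was left out (log2 change 0.68, limma adjusted p = 0.18), and when deletion replicate 1 (0.91, adjusted p = 0.15) or deletion replicate 2 (1.16, adjusted p = 0.086) was. It was also lost, at an unaltered change, without WY23 replicate 1 or 2 (adjusted p = 0.061 for each) and without WY7 replicate 1 or 2 (adjusted p = 0.056 for each), since all strains share 1 estimate of the spread. Against the mean of the 4 *MED15* strains the log2 change was 1.00 (SE 0.25, limma adjusted p = 0.012), and that call was lost without deletion replicate 1 (0.87, adjusted p = 0.10).

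The genes of the other core box C/D proteins did not pass the test. *NOP56*, whose product binds the guide RNA together with that of *NOP58*, had 4759 and 4733 normalized counts in the deletion, 4596 and 4834 for WY7, 5993 and 3706 for WY15, 5153 and 5088 for WY23, and 3932 and 5709 for LAB. *NOP58* had 4731 and 4342 in the deletion, 3944 and 4524 for WY7, 6522 and 3206 for WY15, 5129.6 and 4916 for WY23, and 3552 and 5309 for LAB. For both genes the deletion libraries fell inside the range of the LAB pair. Their log2 changes against LAB were 0.00 (95% interval -0.53 to 0.53) and 0.06 (-0.65 to 0.77), and both intervals reach past 0.5 in either direction. Within a library the per-kilobase ratio of *NOP1* to *NOP56* was 2.46 and 2.08 in the deletion, against 0.988 to 1.31 in the 8 *MED15* libraries. The ratio of *NOP1* to *NOP58* was 2.51 and 2.30 in the deletion, against 1.09 to 1.28. That of *NOP58* to *NOP56* was 0.981 and 0.905 in the deletion, inside the range of 0.846 to 1.07 in the *MED15* libraries. Ratios outside that range were not particular to *NOP1*. The ratio of *CBF5* to *NHP2* was 0.904 and 0.793 in the deletion, against 0.565 to 0.688. That of *CBF5* to *NOP56* was 1.42 and 1.46, against 1.10 to 1.34. The ratios *RRP9* to *NOP56*, *GAR1* to *NHP2* and *NOP10* to *NHP2* lay inside the range. The share of all gene pairs outside it was not computed. Such ratios do not depend on the scaling of a library. They were picked after the values had been seen and are given without a test.

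**Figure D2:**
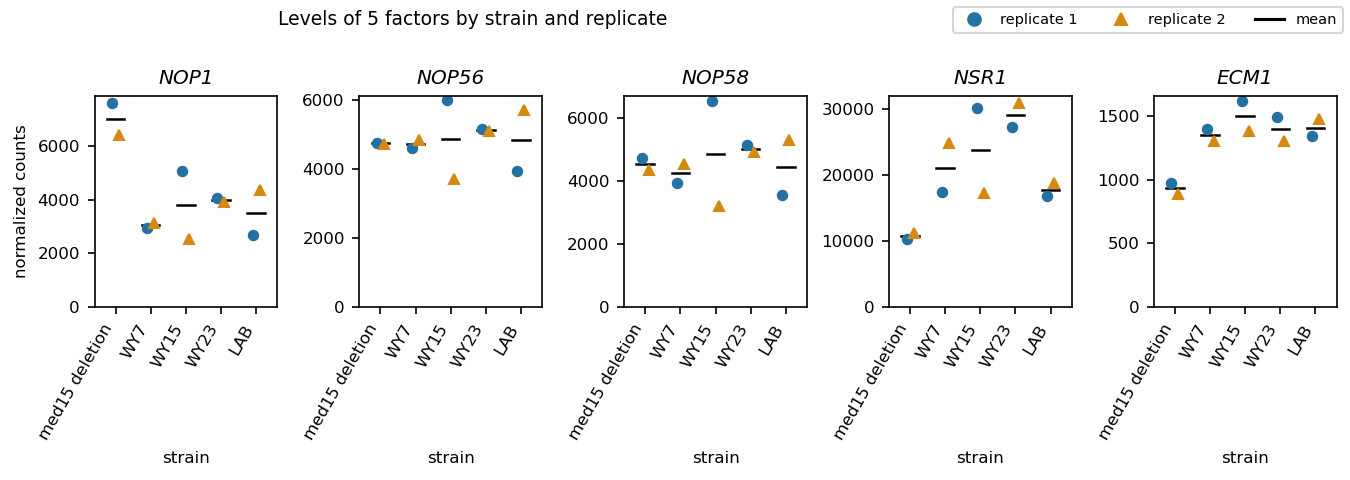
Normalized counts of 5 genes in each strain, with the med15 deletion at the left and LAB at the right, circles for replicate 1, triangles for replicate 2 and a bar for the mean of 2. *NOP1* is above all *MED15* libraries in both deletion libraries, *NSR1* and *ECM1* are below all of them, and *NOP56* and *NOP58* lie within the range of the LAB pair.

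None of the 4 box H/ACA genes passed the test. *CBF5*, which encodes the pseudouridine synthase known in humans as dyskerin, had 6469.5 and 6619 normalized counts in the deletion, 5263 and 5859 for WY7, 7026 and 4589.6 for WY15, 6451 and 6518 for WY23, and 4982 and 6020.4 for LAB. Its log2 change against LAB was 0.26 (SE 0.19, limma adjusted p = 0.31). Its deletion libraries did not overlap the LAB pair but fell inside the range of all 8 *MED15* libraries, which reached 7026. *GAR1* had 2378 and 2395 in the deletion, 2349 and 2454 for WY7, 3229.6 and 1993 for WY15, 2841 and 2827 for WY23, and 2059 and 3186 for LAB. *NHP2* had 2322 and 2706 in the deletion, 2726 and 2794 for WY7, 3633 and 2634 for WY15, 3204 and 3074 for WY23, and 2474 and 2859 for LAB. *NOP10* had 3386 and 3775 in the deletion, 4001 and 4364 for WY7, 4429 and 3687 for WY15, 4443 and 4438 for WY23, and 3938 and 3309.8 for LAB. The deletion and LAB libraries overlapped for these last 3 genes, whose log2 changes against LAB were -0.10 (SE 0.24), -0.09 (SE 0.16) and -0.01 (SE 0.13).

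*NSR1* (YGR159C, chromosome VII, 806412 to 807656, minus strand) encodes a nucleolin-like protein with RNA recognition motifs that is needed for processing of the small-subunit RNA. It had 10236 and 11163 normalized counts in the deletion, 17339.9 and 24789 for WY7, 30140.3 and 17303 for WY15, 27249 and 30877 for WY23, and 16805 and 18696 for LAB. Every *MED15* library was above both deletion libraries, and the *MED15* libraries varied among themselves more than for any other of the 39 genes (SD of log2 values 0.38 over 8 libraries). Against LAB the log2 change was -0.73 (SE 0.26) and did not pass (limma adjusted p = 0.062). It passed without WY15 replicate 1 or 2 (limma adjusted p = 0.014 for each), with only the deletion and LAB in the fit (adjusted p = 0.017) and by DESeq2 (adjusted p = 0.019), with the change at -0.73 in each of these. Where it passed, the lower genes among the 39 numbered 2, and 41.5% (DESeq2), 27% (only the deletion and LAB) and 41.2% (without both WY15 libraries) of all genes were called, or 41.8% by edgeR without WY15 replicate 2. Against the mean of the 4 *MED15* strains *NSR1* fell by 1.06 on the log2 scale (SE 0.21, limma adjusted p = 0.0037), the largest decrease among the 39.

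The 7 helicase genes all had negative log2 changes against LAB, from -0.05 for *DRS1* to -0.48 for *MAK5*, and none passed. These genes encode DEAD-box proteins that unwind RNA in the precursors. *MAK5*, required for the large subunit, had 3469.8 and 2273 normalized counts in the deletion, 4022 and 3888 for WY7, 4741 and 3103 for WY15, 4387 and 3934 for WY23, and 3445 and 4485 for LAB (SE 0.25, limma adjusted p = 0.16), and its deletion libraries differed from each other more than for any other of the 39 genes. *DBP3*, also a large-subunit helicase, had 4589.8 and 4141 in the deletion, 5480.0 and 5442 for WY7, 7247 and 4589 for WY15, 6287 and 5879.6 for WY23, and 4738 and 6670.5 for LAB, with no overlap between the deletion and LAB (log2 change -0.37, SE 0.22, limma adjusted p = 0.23).

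The 9 genes of small-subunit precursors were split, with 4 positive and 5 negative log2 changes and none past the threshold. *UTP22*, whose product belongs to the same processome subcomplex as Rrp7, had 3577 and 2817 normalized counts in the deletion, 2492 and 2094 for WY7, 3681 and 1983 for WY15, 2758 and 2319 for WY23, and 2245 and 2695 for LAB (log2 change 0.37, SE 0.27). *UTP4*, whose product acts early on the nascent precursor, had 2487 and 2151 in the deletion, 1610.1 and 1546 for WY7, 2719.5 and 1456 for WY15, 2059.8 and 1952 for WY23, and 1634 and 2055 for LAB (0.34, SE 0.26). The deletion and LAB pairs of both genes did not overlap, but WY15 replicate 1 reached 3681 for *UTP22* and 2719.5 for *UTP4*, above both deletion libraries. *RRP9*, which encodes a protein of the U3 snoRNP that also contains the products of *NOP1*, *NOP56* and *NOP58*, had 3130.0 and 2948 in the deletion, 2627 and 2685 for WY7, 3997 and 2768 for WY15, 3138 and 3091 for WY23, and 2783 and 2769.9 for LAB (0.13, SE 0.15). *ENP1* had 2296 and 2329.8 in the deletion, 2293 and 2230.3 for WY7, 2974 and 2107 for WY15, 2442 and 2359.9 for WY23, and 2023 and 2288 for LAB (0.10, SE 0.15), likewise without overlap between the deletion and LAB.

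At the negative end of these 9 genes, *RRP5*, whose product takes part in cleavages for both subunits, had 2788 and 2784 normalized counts in the deletion, 4144 and 3518 for WY7, 4461 and 2838 for WY15, 4443 and 3865 for WY23, and 3180.2 and 5454 for LAB. Its log2 change of -0.58 (SE 0.27, limma adjusted p = 0.13) rested on a LAB pair that was far apart, being -0.97 without LAB replicate 1 (limma adjusted p = 0.026) and -0.19 without LAB replicate 2 (limma adjusted p = 0.60). *UTP10* had 2743 and 2116 in the deletion, 2514 and 2300.5 for WY7, 3254 and 1629.8 for WY15, 2977 and 2634 for WY23, and 2289 and 3838 for LAB, with the deletion and LAB pairs overlapping (-0.30, SE 0.34). *NOP14*, whose product works with that of *NOC4*, had 2547 and 2379 in the deletion, 3206 and 2816 for WY7, 3595 and 2370.3 for WY15, 3239 and 2928 for WY23, and 2627 and 3706 for LAB, with no overlap between the deletion and LAB (-0.34, SE 0.22).

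Of the 15 genes of large-subunit precursors, 1 fell, and 13 of the 15 log2 changes were negative. *ECM1* (YAL059W, chromosome I, 36509 to 37147, plus strand), the least abundant of the 39 in normalized counts, had 977 and 889 in the deletion, 1401 and 1307 for WY7, 1621 and 1379 for WY15, 1489.6 and 1301 for WY23, and 1340.1 and 1476 for LAB. Both deletion libraries were below all others. The mean was 933 ± 61.7 in the deletion and 1408 ± 96.4 in LAB (SD, n = 2 each), a log2 change of -0.59 (SE 0.12, limma adjusted p = 0.0056). Leaving out any 1 of the 10 libraries left *ECM1* between -0.66 and -0.52, with limma adjusted p-values of 0.0039 to 0.041. *MAK16*, with 2949.5 and 2912 in the deletion, 2719.9 and 2841 for WY7, 4118 and 2689 for WY15, 3437 and 3384 for WY23, and 2781 and 2969.7 for LAB, was the large-subunit gene with the largest positive log2 change, 0.03 (SE 0.17).

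**Figure D3:**
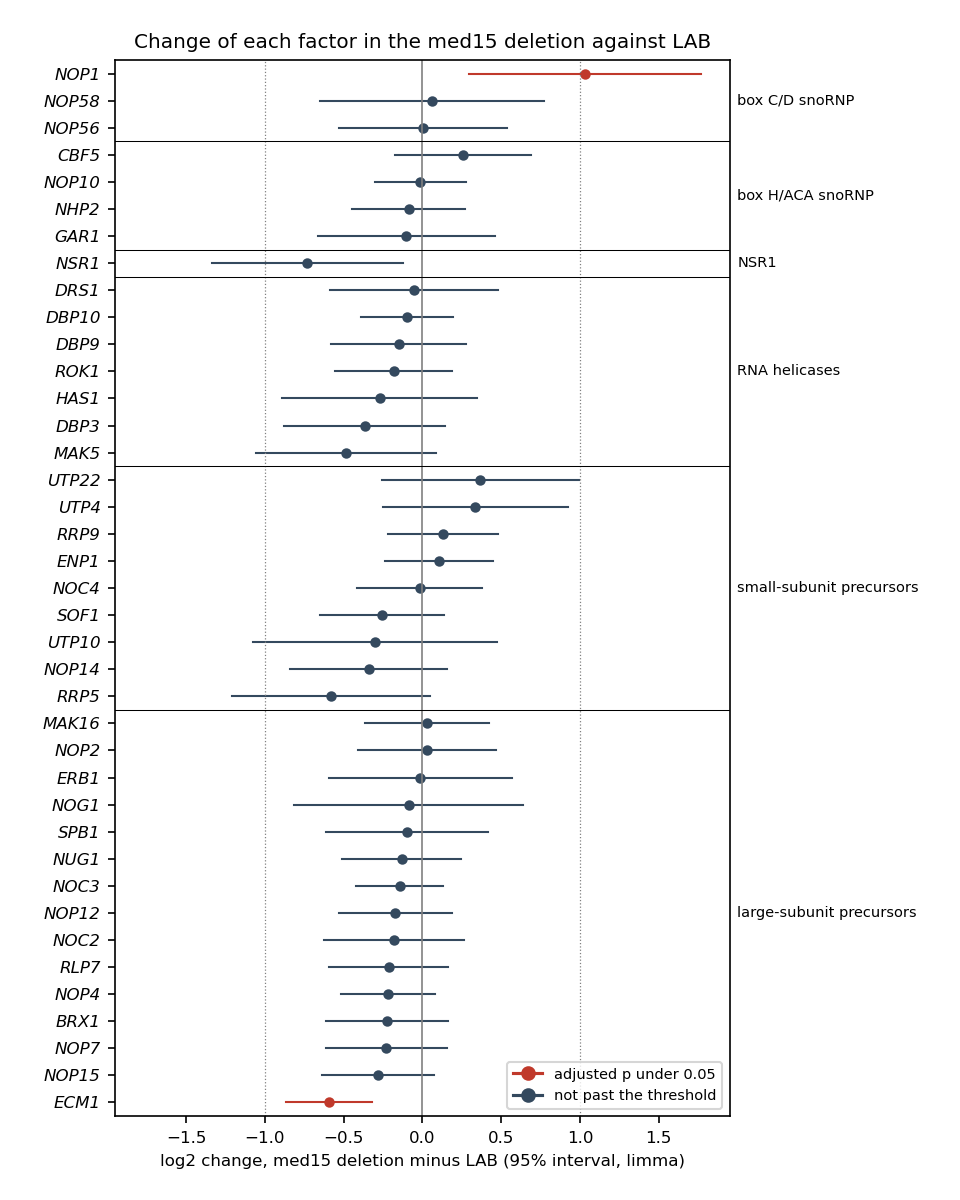
Points give the log2 change of each gene in the med15 deletion against LAB and lines its 95% interval (limma, 2 libraries per strain), with genes grouped by role and dotted lines at 2-fold. *NOP1* at 1.03 and *ECM1* at -0.59, in red, are the genes past the threshold, and 29 of 39 points lie left of 0.

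Set against the mean of the 4 *MED15* strains, which draws on 8 libraries that include the LAB pair, 1 gene was higher in the deletion and 4 were lower, while 49.9% of all genes tested were called, 25.6% higher and 24.3% lower. The median log2 change was -0.17. Beside *NOP1*, *NSR1* and *ECM1* (-0.60, SE 0.09, limma adjusted p = 0.0011), 2 large-subunit genes that encode proteins with RNA recognition motifs fell, *NOP15* (-0.38, SE 0.12, limma adjusted p = 0.031) and *NOP4* (-0.31, SE 0.10, limma adjusted p = 0.037). *NOP15* had 2568 and 2948 normalized counts in the deletion, 3042 and 3331 for WY7, 4556 and 3332 for WY15, 4056 and 3951 for WY23, and 3109.8 and 3599 for LAB. *NOP4* had 3668 and 3738 in the deletion, 4348 and 4105 for WY7, 5484 and 4289.9 for WY15, 5208 and 4759 for WY23, and 4030.3 and 4606 for LAB. For both genes the deletion libraries lay below all 8 others. *NOP15* lost its call without WY7 replicate 2 (adjusted p = 0.058), WY23 replicate 1 or 2 (0.061 and 0.056) or deletion replicate 1 or 2 (0.23 and 0.064). *NOP4* lost it without any of WY7 replicates 1 and 2 (0.067 and 0.055), WY23 replicates 1 and 2 (0.075 and 0.054), LAB replicate 2 (0.056) and deletion replicates 1 and 2 (0.17 and 0.14).

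The WY15 libraries set much of this count. Without WY15 replicate 2, 1 gene was higher and 15 were lower (54.1% of all genes called), without WY15 replicate 1, 4 were higher and 6 lower (53.3%), and without both, 3 were higher and 10 lower (54.3%). By library values alone, both deletion libraries lay above all 8 *MED15* libraries for 1 gene, *NOP1*, and below all of them for 8, which were *NSR1*, *RRP5*, *SOF1*, *NOP4*, *NOP12*, *NOP15*, *BRX1* and *ECM1*. Among all genes tested 26.6% were above and 25.3% below, 51.9% together. Against the LAB pair alone, 6 of the 39 were above and 11 below, and among all genes tested 35.6% were above and 34.1% below, 69.7% together.

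The directions above hold on the deposited scale. The deposited values sum to 20.9 M and 20.8 M in the deletion libraries against 25.9 M to 29.5 M in the *MED15* libraries, and scaling every library to the same sum moves the median of all genes by 0.36 in the comparison with LAB. On that scale 34 of the 39 log2 changes against LAB were positive and 5 negative, 6 genes were called higher and 0 lower (54.3% of all genes called), and *ECM1* was at -0.23 and no longer called (limma adjusted p = 0.14). The difference between the median of the 39 and that of all genes tested was -0.14 on both scales. That likeness follows from moving each library by 1 factor, and after quantile normalization the difference was -0.064. *NOP1* was called on the deposited scale and with equal sums. Against the mean of the 4 *MED15* strains, equal sums gave 12 higher and 1 lower (68.8% of all genes called), and quantile normalization gave 2 higher and 2 lower (50.5%).

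Lists of genes that act beside the 39 are given by their counts in the deletion against LAB, to be read beside the 36.6% of all genes called there. Of 63 other small-subunit factors, 2 were higher and 7 lower (median log2 change -0.12). *KRI1*, required for the small subunit, had 9345 and 9466 normalized counts in the deletion and 5415 and 5819.7 in LAB and rose by 0.74 (SE 0.11, limma adjusted p = 0.0015). The kinase gene *RIO2* (-0.75, limma adjusted p = 0.0007) and *LTV1*, an export factor gene (-0.62, limma adjusted p = 0.015), fell. Of 67 other large-subunit factors, 2 were higher and 10 lower (median -0.14), and the helicase gene *DBP2*, with 5379 and 3481 in the deletion and 10369 and 19047 in LAB, fell by 1.70 (SE 0.42, limma adjusted p = 0.015). The 18 genes of RNA polymerase I and its factors had 3 higher and 2 lower (median -0.10), and the 10 of RNA polymerase III had 1 higher and 1 lower (median 0.02).

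Of the 139 cytosolic ribosomal protein genes, 6 rose and 0 fell, with a median log2 change of 0.19, beside 36.6% of all genes called. That median was not particular to the deletion, since against LAB it was 0.16 in WY7, 0.19 in WY15 and 0.15 in WY23. Against the mean of the 4 *MED15* strains the median in the deletion was 0.08. *RPL18B*, a duplicated large-subunit protein gene, had 1089 and 1548 normalized counts in the deletion and 449 and 565 in LAB (log2 change 1.36, SE 0.19, limma adjusted p = 0.0013). Its near-identical copy could share reads with it, so the value is uncertain. The difference between the median of 0.19 and that of the 39 biogenesis factors was not tested.

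Among 19 regulators of these genes, 1 rose and 7 fell, in total a count near the background of 36.6% called. By direction, 18.9% of all genes tested were higher and 17.7% lower. *STB3*, whose protein binds RRPE and represses these genes on starvation, had 4777 and 4281 normalized counts in the deletion and 7295 and 9125 in LAB (log2 change -0.85, SE 0.15, limma adjusted p = 0.0031). *DOT6*, whose protein binds PAC and represses them likewise, had 17129.9 and 19255 in the deletion and 24473 and 29306 in LAB (-0.56, SE 0.13, limma adjusted p = 0.012). Both repressor genes were lower in both deletion libraries than in every *MED15* library. *TOD6*, the paralog of *DOT6*, was at -0.16 (limma adjusted p = 0.54). The activator gene *SFP1* was at 0.09 (adjusted p = 0.53) and the kinase gene *SCH9* at -0.46 (adjusted p = 0.066). *FHL1* fell (-0.43, adjusted p = 0.0055) and *CRF1* rose (1.80, adjusted p = 0.0013), while *IFH1* was at -0.12 (adjusted p = 0.53). The proteins of these last 3 act at ribosomal protein genes.

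Of 15 general stress genes 11 fell and 0 rose (median -1.50), with summed levels of 286052 and 293669 normalized counts in the deletion against 680512 to 1043365 in the *MED15* libraries. Of 16 genes known to respond to low oxygen 4 rose and 2 fell (median -0.26), a count at the background of 36.6% called. Their part in the values of the 39 genes was not tested.

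The 39 genes also moved together between the 2 libraries of WY15 and of LAB. In WY15, replicate 1 was above replicate 2 for 39 of 39 genes, by a median log2 difference of 0.60 (1.52-fold) and a range of 0.23 to 1.02. Of the 39, 27 were more than 0.5 apart, against 16.3% of all genes tested, whose median was 0.00. *NOP58* (1.02), *NOP1*, *NOG1* and *UTP10* (1.00 each) were furthest apart, and *ECM1* (0.23) and *NOP10* (0.26) least. *NOG1*, which encodes a GTPase of the large-subunit precursor, had 9998 normalized counts in WY15 replicate 1 and 4997 in WY15 replicate 2. In LAB the difference had the other sign: replicate 1 was below replicate 2 for 36 of 39 genes, by a median of -0.31, and 7 genes were more than 0.5 apart, against 13.7% of all genes tested. *RRP5* (-0.78), *UTP10* (-0.75) and *NOP1* (-0.70) were the furthest apart in LAB, and *NOP10* (0.25), *NOC4* (0.02) and *RRP9* (0.01) were the 3 exceptions.

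The other strains were closer. Replicate 1 was the higher for 29 of 39 genes in the deletion (median 0.12), 20 of 39 in WY7 (median 0.00) and 32 of 39 in WY23 (median 0.06), and no gene was more than 0.5 apart in WY23. Of the 8 *MED15* libraries, WY15 replicate 1 was the highest for 33 genes (20.4% of all genes tested) and WY15 replicate 2 the lowest for 25 (18.4%). The SD of log2 values over these 8 libraries had a median of 0.20 for the 39 genes and 0.15 for all genes tested. The labels do not say whether a replicate number ties libraries of different strains to each other, and they give no batch.

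Other lists moved with the same libraries. The ribosomal protein genes were higher in WY15 replicate 1 than in replicate 2 for 139 of 139 genes (median 0.74) and lower in LAB replicate 1 for 135 of 139 (median -0.45). Other small-subunit factors gave 0.39 in WY15 and -0.17 in LAB, and other large-subunit factors 0.44 and -0.20. The low-oxygen genes gave 1.32 in WY15 (14 of 16 higher in replicate 1) and -0.996 in LAB (11 of 16 lower). Their summed levels were 229882 and 91641 normalized counts in WY15 and 120657 and 262987 in LAB. The largest part of each sum was *OLE1*, with 165545 and 49685 in WY15 and 77775 and 203609 in LAB. *COX5B*, also abundant, had 19310 and 18568 in WY15 and 18242 and 16429 in LAB. General stress genes went the other way, with -0.58 in WY15 and 0.29 in LAB. In the other strains the lists did not move alike. In the deletion the 39 genes were at 0.12, but ribosomal protein genes were at -0.13 (125 of 139 lower in replicate 1) and low-oxygen genes at -0.14. In WY7 the 39 were at 0.00, ribosomal protein genes at -0.11 (126 of 139 lower) and low-oxygen genes at -0.26. In WY23 these lists were at 0.06, 0.00 and 0.02. The part of these lists in the values of the 39 genes was not tested.

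**Figure D4:**
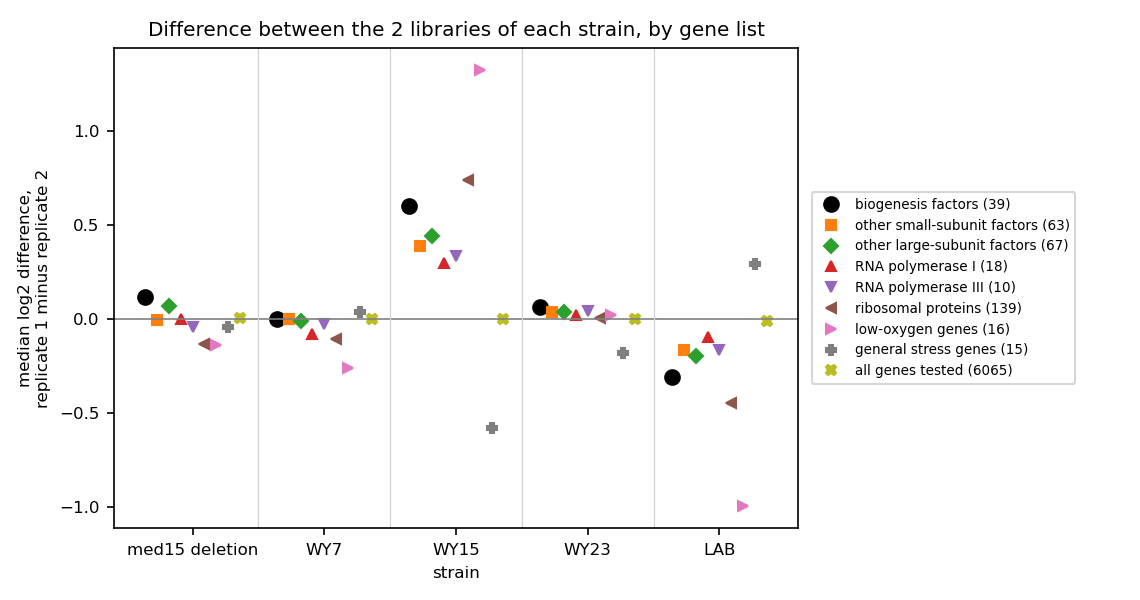
Median log2 difference between replicate 1 and replicate 2 of each strain, for the 39 biogenesis factors (large black circles), 7 other gene lists and all genes tested, with the med15 deletion at the left and LAB at the right. The biogenesis factors and ribosomal proteins are at 0.60 and 0.74 in WY15 and at -0.31 and -0.45 in LAB, and the low-oxygen genes share those signs.

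Between the *MED15* alleles no gene of the 39 passed. In each of WY7, WY15 and WY23 against LAB, in the 3 comparisons among the WY alleles and in the test of any difference among the 4 alleles, 0 of 39 were called by limma, and 0% of all genes tested were. By edgeR the count was 0 of 39 in each of these comparisons too, beside 0% of all genes. By DESeq2 it was 0 of 39 in each, beside 2.61% of all genes in the test of any difference and, against LAB, 0.132% in WY7, 0.066% in WY15 and 0.676% in WY23. Among the WY alleles DESeq2 called 2.56% of all genes in WY7 against WY15, 0.181% in WY7 against WY23 and 0.725% in WY15 against WY23. At an unadjusted p under 0.05 limma had 2 of the 39 in WY23 against LAB, beside 9.23% of all genes, and 0 in each of the other comparisons. EdgeR and DESeq2 had 2 each in WY23 against LAB, beside 9.32% and 10.6% of all genes, and 2 each in WY7 against WY15, beside 11.7% and 12.6%, so these counts are not above the background. Those of limma were *NSR1*, with a log2 change of 0.71 (95% interval 0.10 to 1.32, limma adjusted p = 0.53), and *NOP10*, with 0.30 (0.01 to 0.59, limma adjusted p = 0.53). *NSR1* had 27249 and 30877 normalized counts in WY23 and 16805 and 18696 in LAB. *NOP10* had 4443 and 4438 in WY23 and 3938 and 3309.8 in LAB.

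Medians of the 39 log2 changes were -0.05 for WY7, 0.06 for WY15 and 0.12 for WY23, each against LAB. For WY7 against WY23 the median was -0.15 and 39 of 39 values were negative, beside 3038 of all 6065 genes tested. None of the 39 reached an unadjusted p under 0.05 there by limma, and the 39 genes also moved together between replicates. WY7 against WY15 had a median of -0.11 and WY15 against WY23 one of -0.07. The 95% intervals stayed within 2-fold in both directions for at least 37 of 39 genes in each of these 6 comparisons, so for those genes a change beyond 2-fold falls outside the interval, while smaller ones could not be told from 0 with 2 libraries per strain. With WY15 replicate 2 left out, edgeR called 4 of the 39 lower in WY7 than in WY15, beside 0.561% of all genes, which sets the WY7 pair against the 1 library with the highest values. With the same library left out limma called 0 of the 39.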

How the data were processed

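Stranded mRNA libraries were made with an Illumina kit from polyadenylated RNA and sequenced on 1 NovaSeq lane, per the labels' protocols. Per the submitters' processing notes, the tools were DESeq2, featureCounts, Bowtie2 and Trim Galore, and the builds R64 and sacCer3. Tool versions and the strand setting of the counting: not given in the sources used here. None of the 39 genes has an annotated intron or overlaps another matched gene, but 683 identifiers of the table had no match in the R64 annotation (5917 had) and could not be checked.

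The authors deposited a signal per gene and library, namely the read count over the size factor that DESeq2 gives a library. All values were whole multiples of 1 step per library (100% of values within 1e-06), which gave back the reads for depth and for edgeR and DESeq2. In WY15 replicate 2 the step is so close to 1 (0.9993) that low values look whole without it, so edgeR was also run without that library.

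The main test was limma 3.58.1 (R 4.3.3) on log2(value + 1), 1 fit with 5 group means and a variance trend over the 6065 genes with a mean of at least 10, two-sided, with Benjamini-Hochberg adjustment over all of them in each comparison and a threshold of 0.05 (5 residual degrees of freedom, prior 3.05). Its fold changes are on the log2(value + 1) scale, while those of edgeR and DESeq2 come from the fitted reads. The limma step was tested on simulated data. Alternatives were edgeR 4.0.16 and DESeq2 1.42.0 (no independent filtering) on the recovered reads, other scalings, pseudocounts and filters, a replicate block and leaving out each library.

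The genes and lists were chosen with earlier results of these data known. Values in every library are given for the 8 largest and 8 smallest changes of the deletion against LAB and for the snoRNP proteins (21 genes with *NOP4*, called against the mean of the *MED15* strains), and the other 18 are given by range and count, with *NOG1* added after its values were seen. From each other list, at most 3 of the called genes could be named, those that changed most, beside the most abundant ones and a fixed set of regulators. Other samples than the 10 libraries were not analysed here.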

Additional observations from a re-analysis of the deposited data

How the results depend on the processing

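With every library scaled to the same sum, 6 genes were higher and 0 lower in the deletion against LAB, and 12 were higher and 1 lower against the mean of the *MED15* strains. Against LAB *NOP14* then stood at 0.018, *UTP10* at 0.061, *NOP15* at 0.077, *NOP4* at 0.14, *GAR1* at 0.26, *NHP2* at 0.27 and *NOP10* at 0.35, and against the mean *NOP4* stood at 0.10 and *NOP15* at 0.027, all turned positive by construction of that scale. Quantile normalization put *NOP10* at 0.051 and left 2 higher and 2 lower against the mean, and the cause was not tested. *NOP56*, at 0.00, was at -0.020 by DESeq2 and -0.022 by edgeR, with or without WY15 replicate 2. In the deletion against LAB, 2 genes were lower by DESeq2, with only the groups compared, without both WY15 libraries and by edgeR without WY15 replicate 2, the second being *NSR1*. By edgeR without WY15 replicate 2, 15 genes were lower against the mean and 4 differed between WY7 and WY15, and without both WY15 libraries 3 were higher and 10 lower. Both settings without WY15 libraries were chosen after seeing the data. The labels do not say that the replicate numbers pair the samples. The correlations of within-strain differences ran from -0.50 to 0.41, which cannot decide whether some strains were paired. With the replicate number as a block, 0 genes were higher and 1 lower against LAB, with *NOP1* at an adjusted p = 0.056, and 6 were called against the mean. With 1 library left out at a time the count against LAB ran from 0 to 1 higher and 1 to 2 lower, and against the mean from 0 to 4 higher and 2 to 15 lower. Over the same settings the log2 change against LAB ran from -0.67 to 0.074 for *UTP10*, from -0.019 to 0.076 for *MAK16*, from -0.23 to 0.35 for *NOP58*, from -0.27 to 0.27 for *NOP56*, from -0.42 to 0.21 for *GAR1*, from -0.20 to 0.025 for *NHP2* and from -0.14 to 0.11 for *NOP10*. For a strain left with 1 library the fit assumes that it varies like the others. Of 338 values of named genes under the settings other than leaving out 1 library, 311 kept direction and side of the threshold. With 1 library left out at a time, 11 values changed direction, and calls were lost as given above. Each of the 39 genes had at least 1024 reads in every library, and counting error was not set against the spread between replicates.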
